A study of Mus musculus with 2 samples.

Results

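Transcription factors, splicing regulators and the adhesion molecule that together define epithelial cells were compared between 2 microarrays of sorted medullary thymic epithelial cells (mTEC). The set holds 10 genes chosen by name, namely Epcam, the ETS factor genes Ehf, Elf3 and Elf5, the grainyhead genes Grhl2 and Grhl3, the splicing regulator genes Esrp1 and Esrp2, and the OVO zinc finger genes Ovol1 and Ovol2. All 10 were measured, among 19937 genes named in the whole series, each through 1 probe set of its own. The cells came from B6 mice aged 6 weeks. Both groups carried floxed Hdac3 alleles. The group labelled WT was HDAC3fl/fl without Cre, and the group labelled HDAC3cKO was HDAC3fl/fl Foxn1-Cre, in which the Foxn1 promoter, active in thymic epithelial cells, directs Cre. The sort gate was EpCAM+, CD45-, Ly51low and MHC-II low, and the series' own text calls the sorted cells residual. About 30000 sorted cells were used for an RNA extraction, and 10 to 30 HDAC3cKO mice were typically pooled to reach that number. RNA was amplified and hybridised to 1 whole-transcript Affymetrix array per group, so replicate error is unknown for every value and the groups could not be tested against each other.

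EpCAM is a surface adhesion protein of epithelial cells that also stabilises claudins at tight junctions. Grainyhead and OVO factors keep the epithelial state, in part by holding down ZEB and SNAI repressors of epithelial genes, while EHF, ELF3 and ELF5 are ETS factors found mainly in epithelia that act in their differentiation. ESRP1 and ESRP2 bind RNA and select the epithelial splice forms of transcripts such as Fgfr2, Cd44, Ctnnd1 and Enah. In the medullary thymus such regulators act in an epithelium that includes keratinocyte-like, tuft and other specialised cells.

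The deposited values are intensities, read here as log2. A difference is the log2 intensity on the HDAC3cKO-labelled array less the log2 intensity on the WT-labelled one, and a gene was called when it differed by at least 2-fold. Hdac3 was not lower on the HDAC3cKO-labelled array, at a log2 level of 11.64 against 10.90, which goes against the label. The exons its probe set covers are not stated, and this value may not check the deletion. Every direction below therefore rests on the array labels. The median over all genes was 0.01, and 95% of them, leaving out equal tails (the central 95%), spanned -1.72 to 1.07. Of the gate's own markers, Epcam is described below, Enpep, which encodes Ly51, was at log2 levels of 7.00 and 7.38 on the WT- and HDAC3cKO-labelled arrays, and Ptprc, which encodes CD45, was at 9.63 and 8.79. H2-Aa, an MHC class II gene, was at 13.30 and 13.31. The table has no detection calls, so no level can be read as absence. In pooled RNA, fewer cells of a type and less RNA per cell cannot be told apart.

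The 10 genes did not move as a block. On the HDAC3cKO-labelled array, 2 of them (Ehf and Elf3) were lower by 2-fold or more, beside 5.88% of all 19937 genes, and none was higher by that much, beside 2.97% of all genes. Both were among the 8 members whose mean level was no less than 8.03, the median gene's, and 6.75% of such genes were lower by 2-fold or more and 4.54% higher. Elf5 and Ovol2 were below that level. At a threshold of 1.5-fold, 4 of the 10 were lower (beside 11.2% of all genes) and 2 higher (beside 8.33%), and at 3-fold Ehf and Elf3 were lower (beside 2.88%) and none higher (beside 0.757%). Differences ran from -2.41 for Ehf to 0.95 for Grhl2, with 7 genes below 0 and 3 above. Their median was -0.35, or -0.61 over the 8 no less than the median gene's level, and 48.3% of all genes were below 0.

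**Figure D1:**
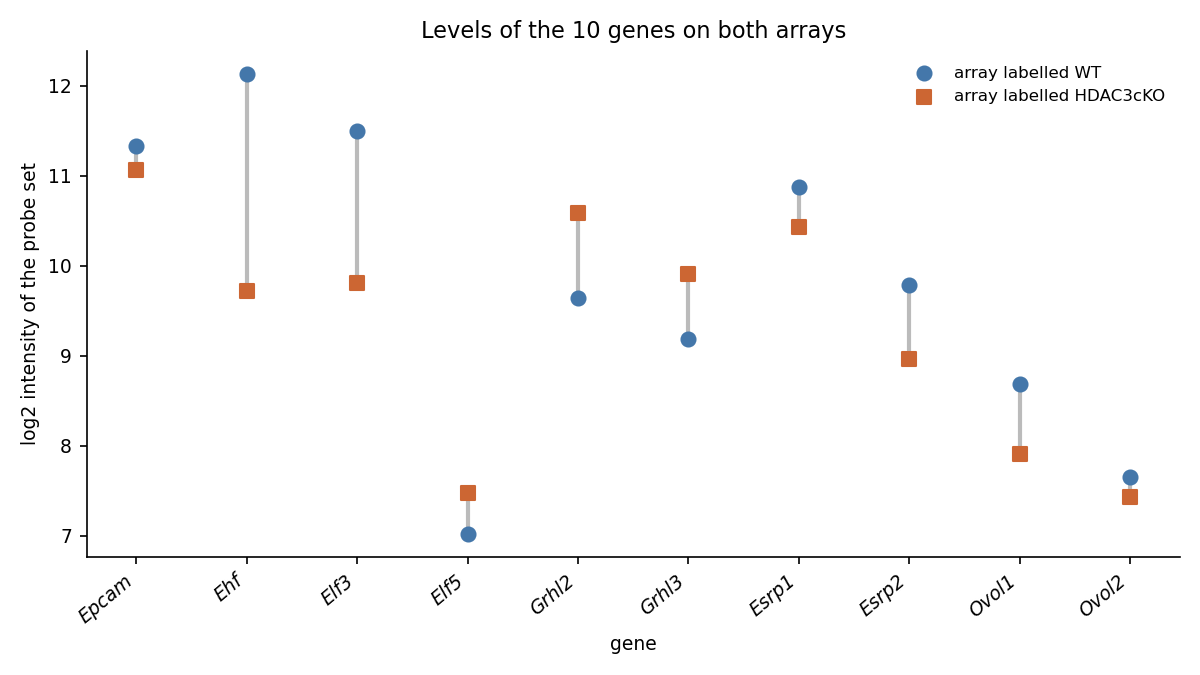
Log2 intensity (vertical axis) of the probe set of each of the 10 genes (horizontal axis) on the WT-labelled array (blue circles) and on the HDAC3cKO-labelled array (orange squares), 1 array each, with a grey line joining the 2 values of a gene. The longest lines are those of Ehf and Elf3, lower on the HDAC3cKO-labelled array, and Elf5, Grhl2 and Grhl3 are the 3 genes that were higher there.

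Promoter sequences were available for 5 of the 10 genes, Epcam, Elf3, Elf5, Grhl3 and Ovol2, as 6 windows of 300 bases around RefSeq starts, with 2 windows for Elf5. They were searched on both strands for the sites of the factors in the set and of the repressors they oppose. The CACCTG E-box, which ZEB and SNAI proteins bind, was in 5 of the 6 windows and in 4 of the 5 genes, whereas 20.2% of all 32851 promoter windows hold it. The Ovol2 window lacked it. None of the 6 windows held CCGGAA, 1 form of ETS site, the OVO site CCGTTA or the grainyhead site AACCGGTT. They also lacked the looser grainyhead form AACNNGTT, of which AACCGGTT is a special case. These motifs are in 14.9%, 2.76%, 0.146% and 4.20% of all windows. The shorter ETS core GGAA was not searched for, and the Elf3, Elf5 and Grhl3 sequences printed below hold it. The 6 windows held 55.3% to 65.7% G and C, against a median of 52.7% over all windows, and the share of E-boxes was not adjusted for that. A match is a run of letters and not a bound site, and windows shared by 1 gene are not independent.

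The 4 genes with an E-box include 1 that was over 2-fold lower (Elf3), 1 that was little different (Epcam) and 2 that were higher (Elf5 and Grhl3), and their 250 bases before the start are shown for that reason, 5′ to 3′ in the direction of the gene, from RefSeq on GRCm38.p6. Capitals mark CACCTG or its reverse complement. The windows are chr17:87635729-87635978 on the plus strand for Epcam, chr1:135258473-135258722 on the minus strand for Elf3, chr2:103411848-103412097 on the plus strand for Elf5 and chr4:135573633-135573882 on the minus strand for Grhl3.
Epcam: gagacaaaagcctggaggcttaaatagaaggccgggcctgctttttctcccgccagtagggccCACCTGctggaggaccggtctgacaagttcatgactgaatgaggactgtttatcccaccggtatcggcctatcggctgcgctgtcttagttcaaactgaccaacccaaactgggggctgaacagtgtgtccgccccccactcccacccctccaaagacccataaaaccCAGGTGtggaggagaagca
Elf3: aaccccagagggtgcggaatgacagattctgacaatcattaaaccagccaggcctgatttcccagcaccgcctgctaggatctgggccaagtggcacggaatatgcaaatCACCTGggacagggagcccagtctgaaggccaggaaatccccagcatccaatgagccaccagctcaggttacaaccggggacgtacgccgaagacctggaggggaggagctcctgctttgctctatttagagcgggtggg
Elf5: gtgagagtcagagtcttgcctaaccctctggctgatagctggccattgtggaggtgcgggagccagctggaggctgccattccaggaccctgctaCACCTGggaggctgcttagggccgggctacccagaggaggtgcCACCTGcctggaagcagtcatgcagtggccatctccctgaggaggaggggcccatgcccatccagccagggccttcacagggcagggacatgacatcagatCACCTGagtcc
Grhl3: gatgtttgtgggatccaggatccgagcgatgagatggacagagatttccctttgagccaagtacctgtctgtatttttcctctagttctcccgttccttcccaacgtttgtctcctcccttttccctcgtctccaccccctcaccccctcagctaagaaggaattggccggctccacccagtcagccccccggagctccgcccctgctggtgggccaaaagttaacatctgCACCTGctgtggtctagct
The Epcam window holds 2 E-boxes, 187 and 19 bases before the start, and the Elf3 window 1, 140 bases before it. The Elf5 window shown holds 3, at 155, 112 and 11 bases before the start, and the other Elf5 window holds 1 after its start. Grhl3 has 1 at 19 bases before the start and another just after it. Whether E-boxes bear on the differences was not tested.

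Epcam, whose product was used to sort the cells, had an intensity of 2570 on the WT-labelled array and 2133 on the HDAC3cKO-labelled array. On the log2 scale this is 11.33 and 11.06, a difference of -0.27, at percentile 21.9 of all genes. The gate selects for EpCAM protein, so its transcript is not an independent readout of epithelial identity here. A list of genes for EpCAM partners, for proteases that process it and for inhibitors of such proteases had a median of -0.48. Of the 11 measured, 10 were below 0, and 3 were past 2-fold, all of them lower. The tetraspanin gene Tspan8 was at 9.67 on the WT-labelled array and 6.52 on the HDAC3cKO-labelled array, 8.90-fold lower. The claudin genes Cldn1 and Cldn7, whose proteins EpCAM stabilises, were 5.71-fold and 4.74-fold lower. Spint1, an inhibitor of the protease matriptase, differed by -0.60, and St14, which encodes matriptase, by -0.29.

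Ehf and Elf3 had the largest differences of the set. Ehf, an ETS activator of epithelial differentiation genes, had an intensity of 4485 on the WT-labelled array and 843.0 on the HDAC3cKO-labelled array, log2 levels of 12.13 and 9.72. It was 5.32-fold lower, at percentile 1.17 of all genes, and was the only one of the 10 outside the central 95% of genes. Elf3, which acts in the differentiation of simple and stratified epithelia and whose promoter is printed above, had intensities of 2883 and 892.2, log2 levels of 11.49 and 9.80. It was 3.23-fold lower, at percentile 2.60. Both genes lay in the highest of 10 equal groups of genes by mean level, in which 4.96% of 1994 genes were lower by 2-fold or more.

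Elf5, the third ETS gene of the set, best known in mammary and trophoblast epithelium, went the other way. Its intensities were 130.0 and 177.9, log2 levels of 7.02 and 7.48, and it was 1.37-fold higher on the HDAC3cKO-labelled array, at percentile 87.8. Its mean level was below the median of all genes, where background can compress a fold. Across the 3 genes the differences therefore spanned 2.86 log2 units, the widest span of any family in the set.

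Among 24 measured ETS genes, the 3 members included, Ehf and Elf3 had the lowest differences. The median of the 21 other ETS genes was 0.13, and past 2-fold there were 2 on the lower side and 3 on the higher side. Spib, a factor of microfold cells and of B and plasmacytoid dendritic cells, was at 12.14 and 10.50, 3.11-fold lower. It is also among the factors of specialised mTEC types described below. Spi1, which encodes the myeloid and B cell factor PU.1, was at 9.63 and 8.29, 2.53-fold lower. The other direction was led by Etv5, a target of FGF and GDNF signalling, at 2.60-fold and by the ETS repressor gene Erf at 2.06-fold higher. Spdef, a factor of secretory epithelium, differed by -0.23. Blood cell markers differed beside Spib and Spi1. Each of the 16 markers of macrophages and dendritic cells was below 0 (median -0.85), and 5 were past 2-fold. Their log2 levels spanned 6.88 to 12.29 on the WT-labelled array and 6.37 to 11.21 on the other, and their intensities summed to 19656 and 8855. Lyz2 and Laptm5, at log2 levels of 12.29 and 12.16 on the WT-labelled array, gave the largest parts of the sum there. Laptm5 also had the lowest difference of these markers, -2.08. The part of blood cells in the Spib and Spi1 values was not tested.

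**Figure D2:**
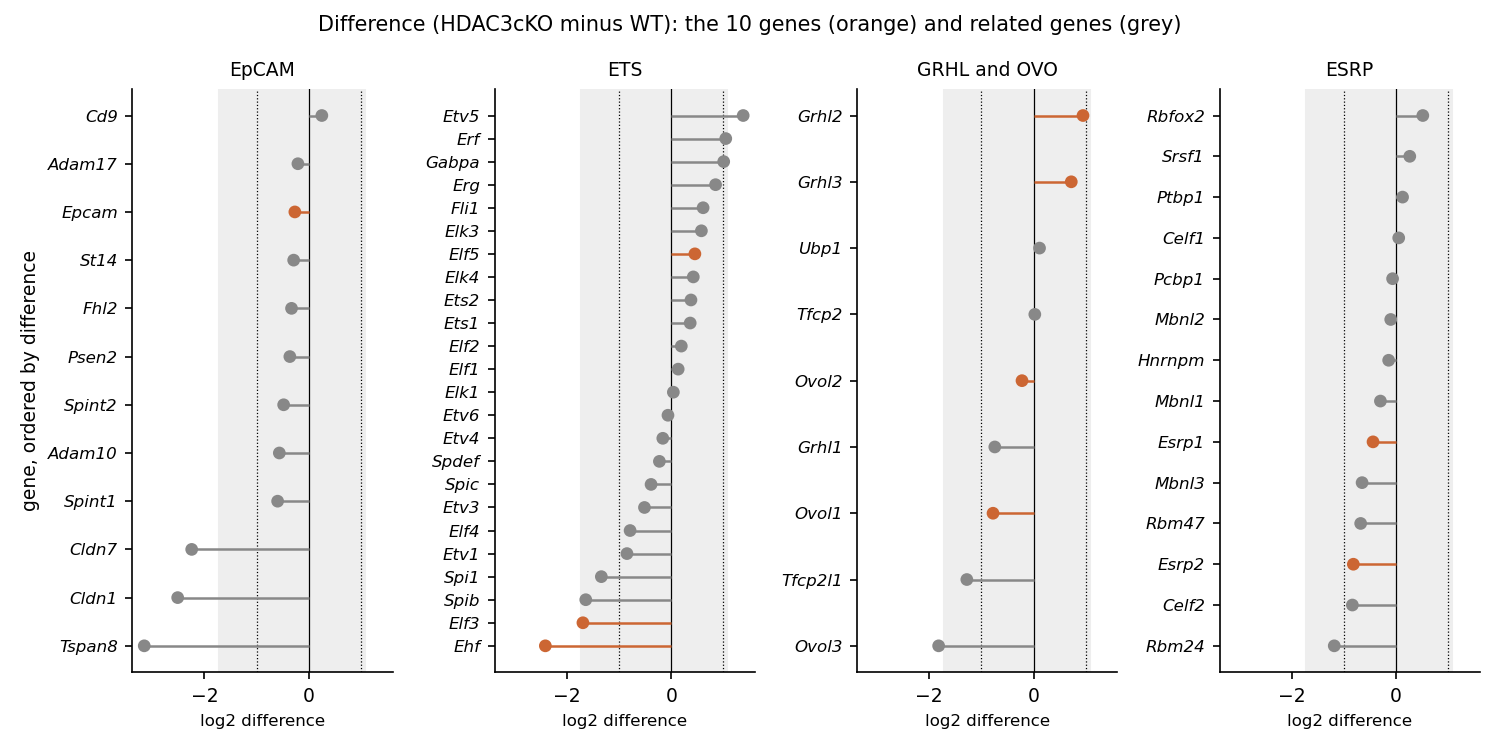
Log2 difference (HDAC3cKO minus WT, horizontal axes) of the 10 genes (orange) and of related genes (grey), in 4 panels ordered by difference; dotted lines mark 2-fold and the grey band the central 95% of all genes, -1.72 to 1.07. Ehf and Elf3 stand at the foot of the ETS panel, and Grhl2 and Grhl3 at the head of theirs.

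Both grainyhead genes of the set were higher on the HDAC3cKO-labelled array, each by less than 2-fold. Grhl2, an activator of Cdh1, claudin and other junction genes, had intensities of 799.0 on the WT-labelled array and 1539 on the HDAC3cKO-labelled array, log2 levels of 9.64 and 10.59. It was 1.93-fold higher, at percentile 96.6. Grhl3, needed for the epidermal barrier, had intensities of 583.7 and 961.9, log2 levels of 9.19 and 9.91. It was 1.65-fold higher, at percentile 94.0. Grhl1, the remaining member of that family and a factor of desmosome and keratinocyte genes, was at 9.35 and 8.61, a difference of -0.74, so the 3 grainyhead genes lay on both sides of 0. Tfcp2l1, a more distant relative found in kidney and salivary ducts, was 2.43-fold lower.

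Ovol1 and Ovol2, zinc finger repressors that restrain mesenchymal and progenitor genes, were both lower by less than 2-fold. Ovol1 had intensities of 412.8 and 240.8, log2 levels of 8.69 and 7.91, and was 1.71-fold lower, at percentile 8.06. Of the 1993 genes in the same group by mean level, 9.23% were lower by 2-fold or more. Ovol2 had intensities of 200.4 and 171.7, log2 levels of 7.65 and 7.42, a difference of -0.22 at percentile 24.7. Ovol3, the third OVO gene, was at 9.89 and 8.07, 3.53-fold lower, which is past the threshold that neither member reached.

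Esrp1 and Esrp2 were also both lower by less than 2-fold. Esrp1 had intensities of 1871 and 1379, log2 levels of 10.87 and 10.43, a difference of -0.44 at percentile 14.8. Esrp2 had intensities of 879.5 and 499.3, log2 levels of 9.78 and 8.96, a difference of -0.82 or 1.76-fold, at percentile 7.58. The transcripts they splice were compared only as whole genes, since a probe set that averages over exons does not show which splice form was made. None of 10 measured target genes differed by 2-fold, beside 5.88% of all genes lower and 2.97% higher by that much. The median of these target genes was -0.19. Fgfr2 differed by 0.06, Ctnnd1, which encodes p120 catenin, by 0.07, Cd44 by -0.35 and Enah, an actin regulator, by 0.90. The median of 12 other splicing regulators was -0.12, and only Rbm24, 2.27-fold lower, was past 2-fold.

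**Figure D3:**
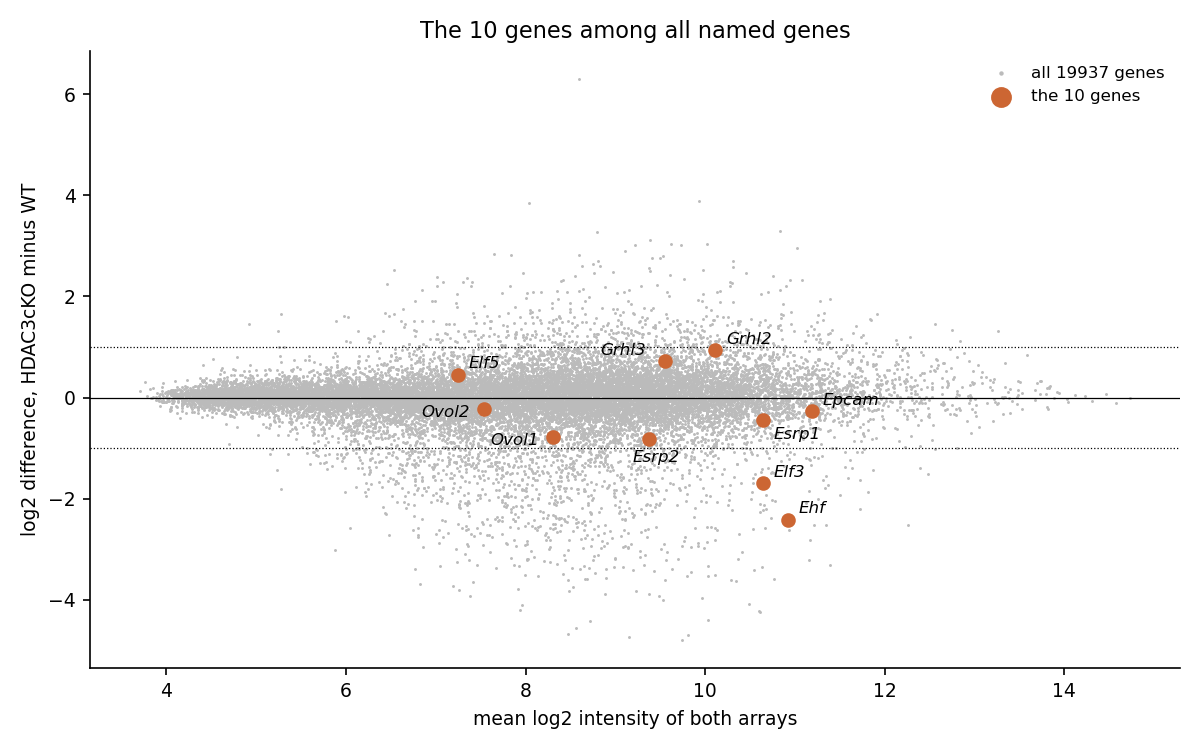
Mean log2 intensity of both arrays (horizontal axis) against the log2 difference, HDAC3cKO minus WT (vertical axis), for all 19937 named genes (grey) and the 10 genes (orange, named); dotted lines mark 2-fold. Ehf and Elf3 lie below the lower dotted line at high mean levels, and the other 8 lie between the lines.

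Genes that form epithelial junctions, among them known targets of GRHL2, had a median of -0.84. Of the 19 measured junction and polarity genes, 8 were past 2-fold on the lower side and 1 on the higher side, and the other 10 differed by less. Cldn7 was 4.74-fold lower, and Tjp3, a tight junction scaffold, was at 10.24 and 8.42, 3.53-fold lower. Cdh1, which encodes E-cadherin, was at 12.38 and 12.06, a difference of -0.32, close to that of Epcam. The gene on the higher side was Cdh3, which encodes the P-cadherin of basal epithelium, at 10.13 and 11.49, 2.58-fold higher. The median of 10 pan-epithelial markers, keratins for the most part, was -0.12. Past 2-fold, 3 were lower, led by Cldn7 and by Krt14 at 2.57-fold, and none was higher. Of the 10 markers, 6 were below 0 and 4 above, with Krt18 the highest at 0.85. The intensities of the 10 summed to 58966 on the WT-labelled array and 63564 on the other.

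Barrier genes of the outer epidermis, where GRHL3, EHF and OVOL1 are known to act, were below 0 in 16 of 17 cases. Past 2-fold, 15 of the 17 measured were lower, and the median was -1.93. Klk7, a protease of shedding epidermis, was at 11.53 and 7.53, 15.9-fold lower, and the keratin gene Krt10 was 11.5-fold lower. Zfp750, a factor that works with grainyhead proteins in keratinocytes, was at 10.40 and 10.82 and differed by 0.42. Markers of cornified keratinocytes, 10 of which the barrier list shares, were lower by over 2-fold in 13 of 13 cases (median -2.93). Their intensities summed to 23774 on the WT-labelled array and to 4162 on the other. Markers of tuft cells, the chemosensory cells of epithelia, were lower by over 2-fold in 15 of 15 cases (median -3.53), and their intensities summed to 49988 and 3938. Rgs13 and Trpm5 led them at 27.7-fold and 25.9-fold lower. The part of these cells in the Ehf, Elf3, Esrp2 and Ovol1 values was not tested.

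Factors that specify the specialised mTEC types had a median of -0.83. Of the 16 measured, 7 were past 2-fold, all lower. Pou2f3, the tuft cell factor, was at 11.86 and 8.36, 11.3-fold lower, and the muscle factor gene Myog, at 8.48 and 6.49, was 3.97-fold lower. Among 15 other epithelial factors, 2 were past 2-fold on the lower side and 1 on the higher side. Their median was 0.020, and it turned to -0.018 after quantile normalization and -0.043 after an intensity-dependent curve was subtracted. Foxq1 was 2.57-fold lower and Pax1, a factor of pharyngeal pouch epithelium, 2.38-fold higher. Trp63, the factor of basal epithelium, was at 11.10 and 11.92, a difference of 0.82 that is close to those of Grhl2 and Grhl3. Klf4 differed by 0.02.

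Mesenchymal genes, which grainyhead and OVO factors oppose, had a median of 0.22 over 12 measured, of which only Cdh2 was past 2-fold. Zeb1 was at 9.41 and 9.39, a difference of -0.02, and Zeb2 differed by 0.16. Zeb1 encodes a main repressor of Esrp and Epcam that can bind the CACCTG motif, and no binding was measured here. Snai1 and Snai2, which encode the SNAI repressors, differed by 0.80 and 0.37. The list also holds Tgfbr2, a TGF-beta receptor gene, which differed by 0.96, and S100a4, which differed by -0.97. Cdh2, which encodes N-cadherin, was at 11.21 and 8.27, 7.70-fold lower.

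Markers of other cell types, inside and outside the gate, also differed between the arrays. Each of the 14 endothelial markers was above 0 (median 1.01), and 7 were past 2-fold. Their log2 levels spanned 8.14 to 11.06 on the WT-labelled array and 9.13 to 12.11 on the other, and their intensities summed to 10402 and 21276. The sialomucin gene Emcn led them at 4.60-fold higher. For fibroblasts, the median of 14 markers was 0.64, with 11 above 0 and 3 below. Past 2-fold there were 5, all higher, and the intensities summed to 10582 and 20710. Dcn, the highest of these markers at log2 levels of 11.84 and 13.29, gave the largest part of both sums. Each of the 12 markers of cortical thymic epithelium was above 0 (median 0.74), and 4 were past 2-fold, led by Kitl, the ligand of KIT, at 4.24-fold. The median of 6 junctional mTEC markers was 0.88, with Pdpn and Krt15 past 2-fold on the higher side and Krt14 on the lower side. The median of 11 mature mTEC markers was -0.55, with 4 past 2-fold, all lower, led by Fezf2 at 7.85-fold. Thymocyte and B cell markers had medians of -0.54 and -0.32, with 2 of 13 and 2 of 7 past 2-fold, all lower. The part of these cell types in the values of Grhl2, Grhl3 and Elf5 was not tested.

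**Figure D4:**
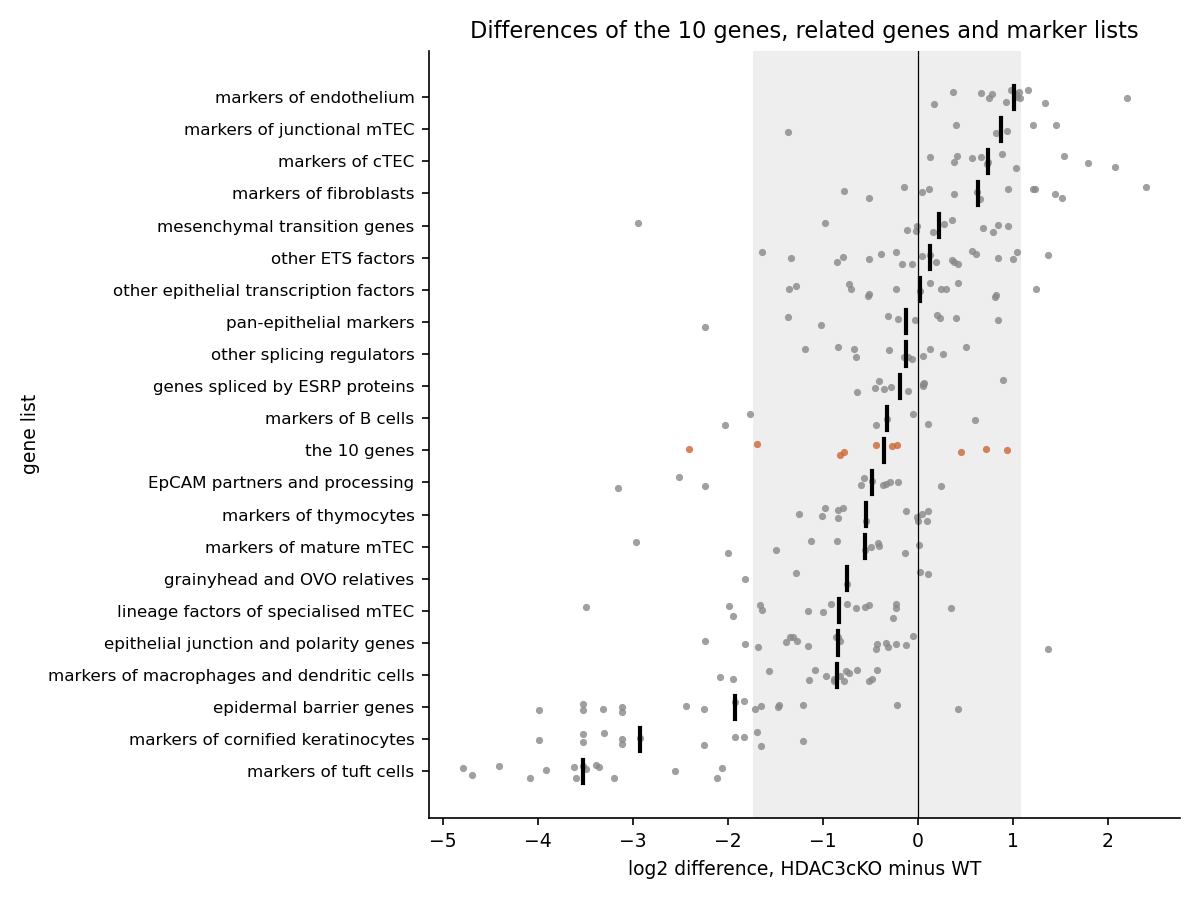
Log2 difference (HDAC3cKO minus WT, horizontal axis) of each measured gene (points) in the 10 genes (orange), related gene lists and cell type marker lists (grey), ordered by the list median (black bars); vertical scatter within a list has no meaning and the grey band is the central 95% of all genes. The 10 genes spread from -2.41 to 0.95 around a median of -0.35, between the tuft cell markers at -3.53 and the endothelial markers at 1.01.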

How the data were processed

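The table deposited by the authors gives intensities on a linear scale, 1 value for each of 34760 probe sets on each of 2 arrays. RMA, which corrects background, normalizes and summarises probes, is named per the submitters' processing notes, without version or settings, and the set of arrays it was run on is not stated. Values were log2-transformed as they stood. Of the probe sets, 21640 had 1 gene symbol in the platform annotation, 1321 had several and 11799 had none listed; Entrez identifiers tied 21553 of the first kind to RefSeq genes of GRCm38.p6. For the 954 genes with several probe sets the one with the highest mean was used. With 1 array per group there is no test, and the number of arrays limits the precision. A gene was called at a log2 difference of at least 1 either way.

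The 10 genes, the related lists and the markers were chosen with earlier results of these data known. Some genes are in more than 1 list, Cldn7, Krt14, Tfcp2l1 and Spib among them, so the lists are not independent of each other. Named genes are the 10 genes, Hdac3, gate markers, up to 2 genes each way past 2-fold per list, and relatives and partners set by name; H2-Aa, Snai1, Tgfbr2 and S100a4 were added after their values were seen, and not every gene the list rule allows is named. Protein sequences were not used here. Counting, scaling and motif steps were tested on simulated data. Alternatives were median centring, quantile normalization, a loess curve (span 0.3), an offset of 50, other probe set rules, thresholds of 1.5-fold and 3-fold, and a filter at the median level. Tables were handled with pandas 2.3.3 and numpy 2.4.6 under Python 3.11.15, curves fitted with statsmodels 0.14.6 and plots drawn with matplotlib 3.10.9.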

Additional observations from a re-analysis of the deposited data

How the results depend on the processing

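No paired analysis was possible because each group had 1 array, and no array could be left out. Each of the 10 differences kept its direction and its side of the 2-fold threshold under median centring, quantile normalization, the loess curve and the offset of 50. Both other probe set rules could not change the 10 values, since each gene has 1 probe set. Ehf ranged from -2.49 to -2.34, Elf3 from -1.76 to -1.64 and Grhl2 from 0.89 to 0.95. At 1.5-fold, 4 of the 10 genes were lower (Ehf, Elf3, Esrp2 and Ovol1), beside 11.2% of all genes, and 2 were higher (Grhl2 and Grhl3), beside 8.33%. At 3-fold, Ehf and Elf3 were lower, beside 2.88% of all genes. Of the list medians, that of other epithelial transcription factors, 0.020, turned to -0.018 with quantile normalization and -0.043 with loess, and was 0.074 with the filter at the median level. The endothelial median, 1.01, was 0.995 with quantile normalization, 0.96 with loess and 0.92 with the offset. With the filter at the median level, the median of the 10 genes went from -0.35 to -0.61, that of specialised mTEC factors from -0.83 to -1.15, other ETS genes from 0.13 to 0.28, mesenchymal genes from 0.22 to 0.37 and B cell markers from -0.32 to -0.58. With loess, the other ETS genes were at 0.074. Pan-epithelial markers went from -0.12 to -0.21 with quantile normalization and -0.22 with loess, and other splicing regulators from -0.12 to -0.19 and -0.20. B cell markers were at -0.17 with the offset. No scaling moved the median of all genes by more than 0.020. Signal over background could not be assessed, which limits every fold that involves a low level, those of Elf5, Ovol2, Tspan8, Myog, Rgs13 and Trpm5 among them.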
